A study of Mus musculus with 18 samples.

Results

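The genes described here are 10 genes of the blood vessel wall and its surroundings, measured in astrocytes and microglia sorted from mouse brain: Dcn, Lum, Pdgfrb, Acta2, Tagln, Rgs5, Vtn, Myl9, Abcc9 and Colec12. They were chosen by name from among the 35869 genes with a TPM value, and all 10 were found. They are markers of pericytes, vascular smooth muscle cells and fibroblast-like cells, so in a library of sorted astrocytes or microglia they give a measure of vessel wall RNA. In 9 of the 10 genes the 2 highest astrocyte levels belonged to 2 KO animals, another KO animal lay low, and none of the 10 passed the test between KO and control astrocytes. Most of the 10 moved together over the libraries, so these 9 are not separate observations. The share of all genes with this order was not taken.

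Mural cells sit on the outside of small vessels: pericytes embed in the basement membrane of capillaries, and contractile smooth muscle cells ring arterioles. Pericytes depend on the receptor Pdgfrb, which binds PDGF-B released by endothelial cells, and in brain they are also marked by Rgs5, Vtn and the Kir6.1/SUR2 potassium channel. Fibroblast-like cells lie along larger vessels and in the meninges and make matrix proteoglycans such as decorin and lumican. Astrocyte endfeet lie against the outer side of this vessel wall.

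RNA-seq libraries were made from cells sorted by flow cytometry after enzymatic dissociation of adult brain. KO mice were Cx3cr1CreERT2-Tgfb1fl/fl (4 astrocyte and 4 microglia libraries, animals 1 to 4), and control mice were Cx3cr1CreERT2 without the floxed alleles, called WT in the labels (5 astrocyte libraries, animals 1 to 5, and 4 microglia libraries, animals 1, 2, 4 and 5). Every mouse was on C57BL/6, carried the Cre and received 5 oral doses of tamoxifen at 180 mg/kg. Cx3cr1 drives the Cre in microglia and related macrophages, so the astrocytes and mural cells of KO mice are not themselves the cells in which Tgfb1, the ligand TGF-β1, is deleted. Microglia and astrocytes with the same genotype and number came from 1 animal. A further library, whose title and sample code name different cell types, was not used.

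Values are in TPM, each gene's length-adjusted share of a library's transcripts, so levels can be set side by side between genes; the depth behind each value is unknown, and a gene listed at 0 may be present below detection. Astrocyte markers summed to 17477–30795 TPM in KO astrocytes and 24395–26943 TPM in control astrocytes, and to at most 634.1 TPM in any microglia library. Microglia markers summed to 250.1–447.4 TPM in KO astrocytes and 313.2–388.0 TPM in control astrocytes, and to 10555–11786 TPM in KO microglia and 44086–48374 TPM in control microglia, so each sort held markers of its labelled cell type. Astrocyte libraries also held oligodendrocyte markers, summing to 7385.5–18893.6 TPM in KO and 5127.0–7745.7 TPM in control astrocytes. In KO astrocytes 4 that sum (18893.6 TPM) was above the astrocyte marker sum (17476.6 TPM). Tgfb1 averaged 1.70 ± 0.294 TPM in KO microglia and 3.00 ± 0.271 TPM in control microglia (SD, n = 4 each), and was at most 0.3 TPM in any astrocyte library. Xist RNA, made in female cells, was present in all KO animals and in control animals 1 and 2, while control animals 3, 4 and 5 had the Y-linked Ddx3y instead, so the control group is mixed in this respect and the KO group is not. KO astrocyte libraries listed 13647–15057 genes at 0, and control astrocyte libraries 3, 4 and 5 listed 14902–15411, whereas control libraries 1 and 2 listed 16790 and 17251.

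Promoters are shown for 4 of the genes as 3 members whose levels ran in parallel over the libraries (Rgs5, Vtn, Myl9) and the contractile gene whose levels did not (Acta2). Each runs from 250 bases before to 50 bases after the annotated start, 5′ to 3′ on the gene's strand, from RefSeq on GRCm38.p6. The positions are chr1:169655251-169655550 on the plus strand for Rgs5, chr11:78498870-78499169 on the plus strand for Vtn, chr2:156775214-156775513 on the plus strand for Myl9 and chr19:34255324-34255623 on the minus strand for Acta2. Capitals mark an exact match to the CArG box, an element bound by serum response factor, or the letters CATTCC on either strand, the MCAT element bound by TEAD factors.
Rgs5: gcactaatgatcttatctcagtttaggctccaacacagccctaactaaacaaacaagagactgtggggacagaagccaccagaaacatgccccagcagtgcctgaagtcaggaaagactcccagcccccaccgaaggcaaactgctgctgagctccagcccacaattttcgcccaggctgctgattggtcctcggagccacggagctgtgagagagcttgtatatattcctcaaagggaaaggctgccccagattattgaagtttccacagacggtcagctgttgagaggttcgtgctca
Vtn: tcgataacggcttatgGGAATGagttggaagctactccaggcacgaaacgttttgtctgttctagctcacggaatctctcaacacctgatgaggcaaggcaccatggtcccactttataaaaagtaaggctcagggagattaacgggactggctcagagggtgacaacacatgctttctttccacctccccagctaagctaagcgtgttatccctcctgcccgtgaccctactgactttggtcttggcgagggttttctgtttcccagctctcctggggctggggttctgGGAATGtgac
Myl9: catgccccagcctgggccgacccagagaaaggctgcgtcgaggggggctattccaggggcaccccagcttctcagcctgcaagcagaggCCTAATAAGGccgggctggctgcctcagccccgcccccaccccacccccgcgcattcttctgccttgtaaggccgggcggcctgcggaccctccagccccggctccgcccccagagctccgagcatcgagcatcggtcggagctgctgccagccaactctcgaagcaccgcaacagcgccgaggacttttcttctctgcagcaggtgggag
Acta2: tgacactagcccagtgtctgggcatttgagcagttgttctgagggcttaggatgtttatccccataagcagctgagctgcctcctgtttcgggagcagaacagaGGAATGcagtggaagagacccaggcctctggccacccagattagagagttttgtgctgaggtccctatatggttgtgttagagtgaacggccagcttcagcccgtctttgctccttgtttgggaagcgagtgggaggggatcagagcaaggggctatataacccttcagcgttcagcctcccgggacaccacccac
Myl9 held 1 exact CArG box match, starting 161 bases before the start, and 1.63% of 32851 mouse promoters of the same length held one. The other 3 promoters held no exact match in this window; variants with a substituted base were not searched, so nothing follows about serum response factor at these genes. The letters CATTCC stood at 2 places in Vtn and 1 in Acta2 and at none in Rgs5 or Myl9, against 14.7% of all promoters. The E box letters CANNTG were searched on both strands as well and stand in 72.3% of all promoters, the SMAD-type letters CAGAC in 49.6% and the TATA-type letters TATAAA in 13.6%. CANNTG stood at 1 place each in Rgs5 and Myl9, at 2 in Vtn and at 3 in Acta2. CAGAC stood at 1 place each in Rgs5, Vtn and Acta2 and at none in Myl9. Vtn was the only one of the 4 with TATAAA. The marked letters did not overlap one another. These matches describe the sequence and are not measured binding.

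Rgs5, a regulator of G protein signalling that is among the most used pericyte markers, was the second most abundant of the 10 genes by its median and had the widest spread on the log2(TPM + 1) scale. Rgs5 stood at 2791, 380.0, 4290 and 1619 TPM in KO astrocytes 1 to 4, against 109.0, 55.8, 371.7, 1414 and 1244 TPM in control astrocytes 1 to 5. KO animals 1, 3 and 4 were above every control, whereas KO animal 2 was at the level of control animal 3, and the groups overlapped. The highest library had 76.9 times the lowest.

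Vtn, the adhesion protein vitronectin, which pericytes secrete into the vessel matrix, had the highest levels of the set. Vtn stood at 3161, 290.0, 4850.0 and 1830 TPM in KO astrocytes 1 to 4, against 244.4, 89.1, 584.9, 1610 and 1489 TPM in control astrocytes 1 to 5. The order of libraries was nearly that of Rgs5, with KO animals 1 and 3 on top, KO animal 4 close to controls 4 and 5, and controls 1 and 2 lowest. Rgs5 and Vtn together made up 84.7–91.4% of the 10-gene sum in KO astrocytes and 61.1–90.9% in control astrocytes, and the ratio of Vtn to Rgs5 stayed between 0.763 and 2.24 in all 9 libraries. That sum was 6672, 790.8, 10099 and 3773 TPM in KO astrocytes 1 to 4, against 434.9, 237.1, 1129, 3326 and 3020 TPM in control astrocytes 1 to 5. It therefore ranged up to 1.01% of a KO library (animal 3) and up to 0.333% of a control library (animal 4).

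Abcc9 encodes SUR2, the regulatory subunit of the pericyte potassium channel. Abcc9 stood at 9.2, 0.8, 12.7 and 5.4 TPM in KO astrocytes 1 to 4, against 0.7, 0.1, 1.2, 5.2 and 4.8 TPM in control astrocytes 1 to 5. The pore subunit of the same channel, Kir6.1, is encoded by Kcnj8, which is not among the 10 genes but lies next to Abcc9 on chromosome 6, 16247 bp away with no protein-coding gene between. Kcnj8 stood at 161.0, 13.6, 223.2 and 83.4 TPM in KO astrocytes 1 to 4, against 8.2, 2.7, 22.4, 88.0 and 79.1 TPM in control astrocytes 1 to 5. Both subunits were highest in KO animals 3 and 1 and lowest in control animals 2 and 1, as Rgs5 was, and Abcc9 had between 0.037 and 0.0854 of the Kcnj8 level in every library. Part of Abcc9 overlaps the antisense gene 5330439B14Rik, which reached 18.6 TPM in astrocytes; whether counting used the strand is not given in the sources used here, so the low Abcc9 values are uncertain.

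Pdgfrb, the receptor through which endothelial PDGF-B recruits pericytes, varied least. Pdgfrb stood at 27.8, 11.3, 43.8 and 21.6 TPM in KO astrocytes 1 to 4, against 14.5, 12.4, 14.5, 17.4 and 16.7 TPM in control astrocytes 1 to 5. KO animals 1 and 3 again held the top places, but the highest library had only 3.88 times the lowest. The ratio of Rgs5 to Pdgfrb accordingly ranged from 4.5 to 100 over the 9 libraries, since control animals 1 and 2, with the lowest Rgs5, had Pdgfrb levels close to those of control animals 3, 4 and 5.

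**Figure D1:**
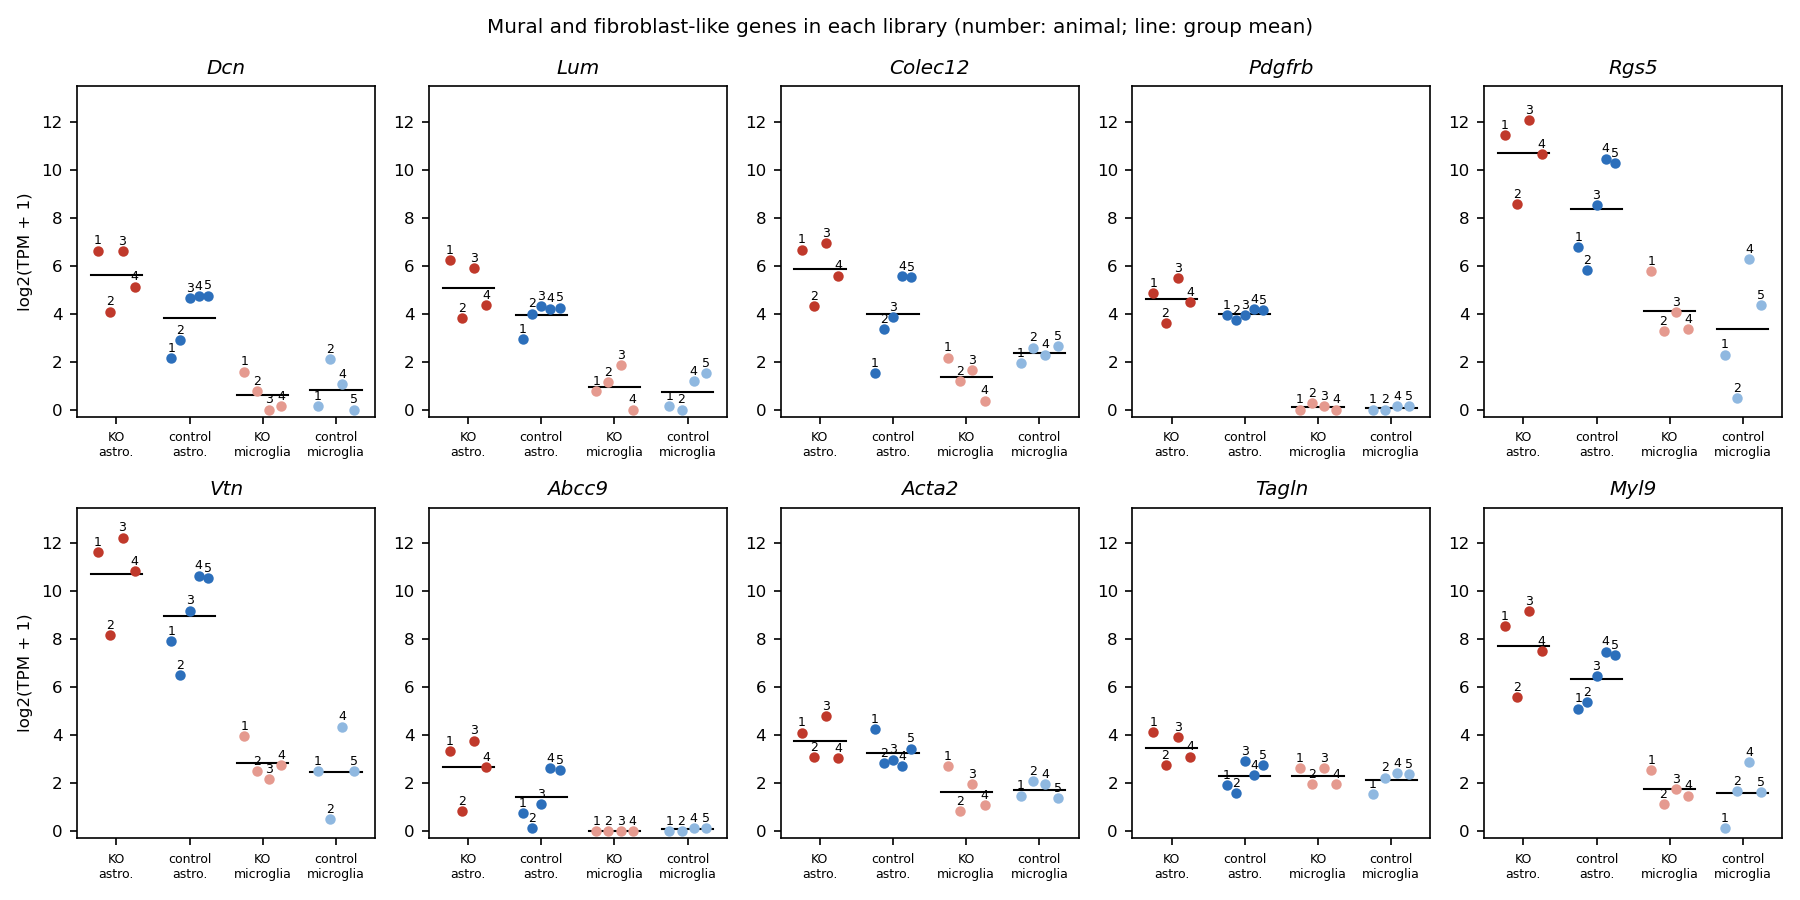
Level of each of the 10 genes as log2(TPM + 1) in KO and control astrocytes and KO and control microglia, 1 point per library with its animal number and a line at the group mean. KO astrocytes span Rgs5 values of 380.0–4290 TPM and overlap control astrocytes at 55.8–1414 TPM.

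Among contractile genes, Myl9, the regulatory light chain of smooth muscle myosin, behaved like the pericyte genes. Myl9 stood at 376.4, 47.4, 581.9 and 181.2 TPM in KO astrocytes 1 to 4, against 33.5, 40.8, 87.0, 179.1 and 161.2 TPM in control astrocytes 1 to 5. KO animals 1 and 3 stood apart, and KO animal 4 was close to control animal 4. Tagln encodes transgelin (SM22α), an actin-binding protein of smooth muscle. Tagln stood at 16.4, 5.7, 14.1 and 7.6 TPM in KO astrocytes 1 to 4, against 2.8, 2.0, 6.5, 4.0 and 5.8 TPM in control astrocytes 1 to 5. Its levels were lower and its range narrower, at 8.2 times from lowest to highest, with KO animal 2 below controls 3 and 5. The last bases of Tagln overlap Pcsk7 on the other strand, which stayed at or under 3.2 TPM. The antisense gene Gm48529 lies within Tagln on the other strand and has no TPM value here. Since the strand setting is not given, the low Tagln values are uncertain too.

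Acta2, smooth muscle α-actin, which marks arteriolar smooth muscle more than capillary pericytes, did not share the order. Acta2 stood at 16.3, 7.5, 27 and 7.3 TPM in KO astrocytes 1 to 4, against 18.0, 6.2, 6.9, 5.5 and 9.9 TPM in control astrocytes 1 to 5. The second highest library was control animal 1, which was lowest or next to lowest for Rgs5, Vtn, Abcc9 and Myl9. Control animals 4 and 5, which had far more Rgs5 than control animal 1, had less Acta2. The ratio of Myl9 to Acta2 ranged from 1.86 to 32.6 over the 9 libraries.

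Dcn and Lum encode decorin and lumican, small leucine-rich proteoglycans that bind collagen fibrils, and lie 46984 bp apart on chromosome 10 with no protein-coding gene between. Dcn stood at 98.0, 16, 96.7 and 34.1 TPM in KO astrocytes 1 to 4, against 3.4, 6.4, 24.2, 25.7 and 26.0 TPM in control astrocytes 1 to 5. Lum stood at 75.2, 13.2, 59.4 and 19.5 TPM in KO astrocytes 1 to 4, against 6.7, 15.1, 18.9, 17.5 and 18.1 TPM in control astrocytes 1 to 5. For both genes animal 1 was the highest of the KO mice and animal 1 the lowest of the controls, while control animals 3, 4 and 5 were close together. This differs from Rgs5, for which control animal 3 was well below controls 4 and 5. The Dcn to Lum ratio ranged from 0.424 to 1.75.

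Colec12 encodes a scavenger receptor of the collectin family, found on fibroblast-like and vascular cells. Colec12 stood at 101.3, 18.9, 122.8 and 47.2 TPM in KO astrocytes 1 to 4, against 1.9, 9.2, 13.6, 47.0 and 45.2 TPM in control astrocytes 1 to 5. KO animal 4 and control animals 4 and 5 were alike, KO animals 1 and 3 were higher, and the remaining 4 libraries were lower. Control animal 3 was well below controls 4 and 5, as for Rgs5 and unlike Dcn and Lum.

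**Figure D2:**
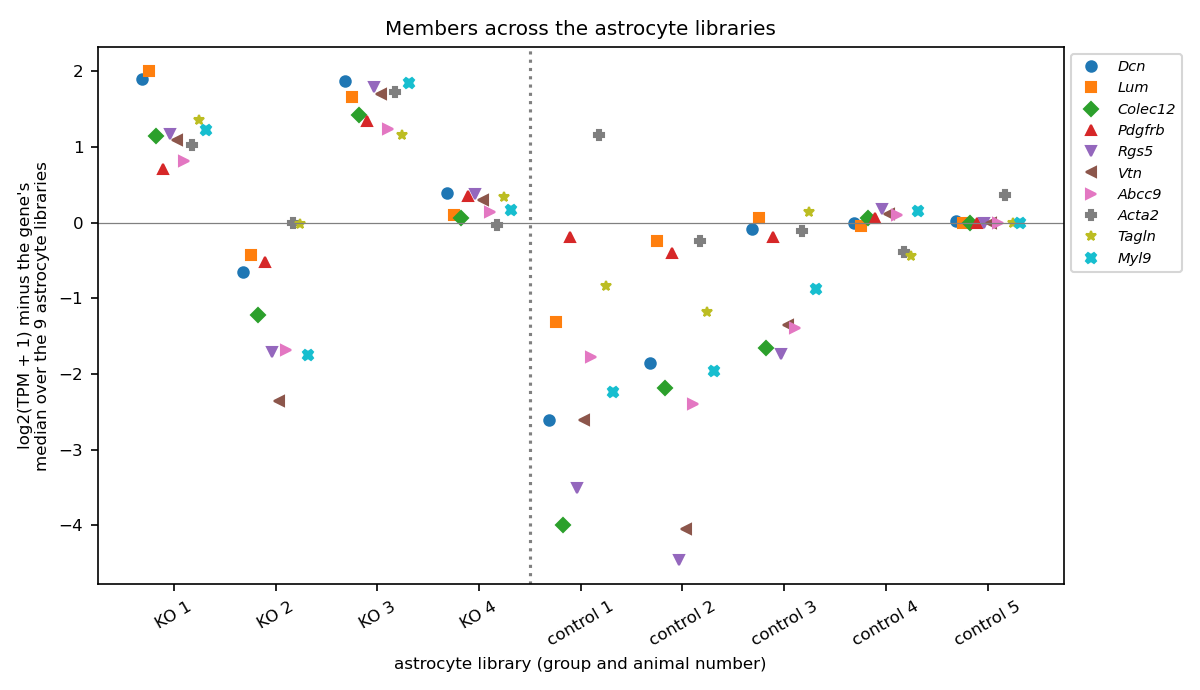
Level of each of the 10 genes in the 9 astrocyte libraries, as log2(TPM + 1) minus that gene's median over the libraries, KO animals left of control animals. KO animals 1 and 3 hold the 2 highest levels of 9 of the 10 genes, and control animals 1 and 2 are low for Rgs5, Vtn and Abcc9.

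The spread over the 9 astrocyte libraries was wide for all 10 genes. On the log2(TPM + 1) scale the SD was 2.12 for Rgs5, 1.9 for Vtn, 1.72 for Colec12, 1.49 for Dcn and 1.43 for Myl9, and 0.59 at the low end for Pdgfrb, against a median SD of 0.317 over 15231 genes. Rgs5 varied more than 99.9% of those genes and Pdgfrb more than 81.8%. Across the 9 libraries, levels of the other genes were compared with Rgs5 as 9 relations, each with an exact two-sided permutation test and Benjamini-Hochberg adjustment. Vtn followed Rgs5 most closely (Pearson's r = 0.982, exact p = 8.27e-06, adjusted 3.72e-05; Spearman's rho = 0.983, exact p = 4.96e-05, adjusted 0.000149), and r was 0.976 without the 2 libraries farthest from the median, control animals 1 and 2. For Abcc9, Myl9, Dcn, Colec12, Tagln, Pdgfrb and Lum r was 0.970, 0.946, 0.928, 0.924, 0.857, 0.806 and 0.762, with adjusted exact p of at most 0.0198, and without the same 2 libraries r lay between 0.656 (Tagln) and 0.994 (Abcc9). Acta2 was the exception (r = 0.355, exact p = 0.342; rho = 0.383, exact p = 0.312), and its r was 0.726 without the 2 libraries. The 9 points include both genotypes and 2 libraries that stand apart, and TPM values share a total, so these are descriptions of how the libraries line up.

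**Figure D3:**
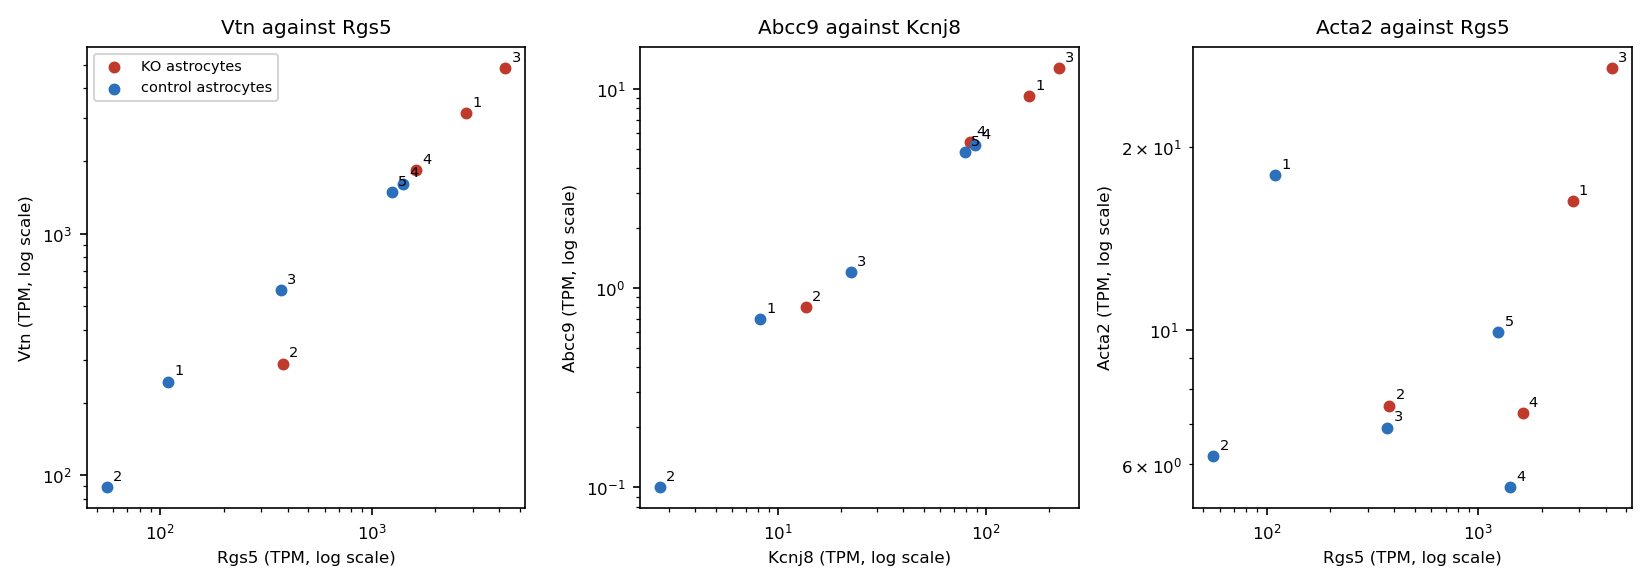
Vtn against Rgs5, Abcc9 against Kcnj8 and Acta2 against Rgs5 in TPM (log axes), 1 point per astrocyte library with its animal number, KO and control in different colours. Vtn runs with Rgs5 along a line (r = 0.982), whereas Acta2 is scattered against Rgs5 (r = 0.355).

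Among 15045 genes searched, the 3 with levels most like each member over the 9 libraries were listed by Pearson's r on log2(TPM + 1), without a test. With Rgs5 these were AW549542, Slc6a20a and Higd1b (r = 0.996, 0.996 and 0.995), and with Vtn they were Kcnj8, Ndufa4l2 and Casq2 (r = 0.997, 0.995 and 0.994). With Abcc9 they were S1pr3, Atp13a5 and Itga1 (r = 0.996, 0.995 and 0.992), and with Myl9 they were Mylk, Saa1 and Esam (r = 0.990, 0.989 and 0.988); Mylk is the kinase that phosphorylates the Myl9 protein. Slc6a20a, Higd1b, Kcnj8, Ndufa4l2 and Atp13a5 are themselves known brain pericyte markers. Dcn was most like Gm16897, Cygb and Gpsm3 (r = 0.983, 0.981 and 0.976), Lum like Crip1, Cdh5 and Edn3 (r = 0.969, 0.962 and 0.961), and Colec12 like Tmem45a, Spp1 and Esyt1 (r = 0.985, 0.983 and 0.982). For Pdgfrb the 3 were P2rx1, Hspa12a and Mef2c, for Tagln Tspan13, Marcks and Capzb, and for Acta2 Sf3a3, Spry1 and Fam114a1, the last with r of 0.943, 0.933 and 0.916. None of the 3 genes nearest to Acta2 is among the listed smooth muscle markers, and each of these r is the highest of a search over all genes.

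Whether loss of microglial Tgfb1 went with a different vessel wall signal in astrocytes was tested with limma on log2(TPM + 1) over the 15231 genes that reached 1 TPM in 4 or more libraries. None of the 10 genes was called at an adjusted p under 0.05, where the background was 0.00657% of all genes, that is 1 gene (Usp18, named here after its values were seen). At an unadjusted p under 0.05 there were 5 of the 10 (Dcn, Lum, Colec12, Rgs5 and Tagln), against 12.7% of all genes. Fold changes here are log2 differences, KO minus control, on the log2(TPM + 1) scale, which understates the change of low genes.

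All 10 differences were positive, with a median of 1.29, against 60.1% positive and a median of 0.07 over all genes. Most of the 10 genes rose and fell together over the same libraries, so their signs are not 10 separate observations. Rgs5 averaged 2270.0 ± 1668 TPM in KO astrocytes (SD, n = 4) and 638.8 ± 643.9 TPM in control astrocytes (SD, n = 5), a log2 difference of 2.31 (SE 1.04, limma adjusted p = 0.392). Vtn averaged 2533 ± 1940 TPM in KO astrocytes and 803.5 ± 705.6 TPM in control astrocytes, a log2 difference of 1.76 (SE 1.00, limma adjusted p = 0.465). The SD within each group was of the order of the difference between means, and for the pericyte genes Abcc9 and Pdgfrb the log2 differences were 1.22 (SE 0.68, limma adjusted p = 0.457) and 0.61 (SE 0.31, adjusted p = 0.428). Tagln, averaging 10.9 ± 5.11 TPM in KO astrocytes and 4.22 ± 1.92 TPM in control astrocytes, had the lowest adjusted p of the set (log2 difference 1.17, SE 0.36, limma adjusted p = 0.300). For Myl9 and Acta2 the log2 differences were 1.36 (SE 0.74, adjusted p = 0.453) and 0.52 (SE 0.42, adjusted p = 0.611). Among the fibroblast-like genes the log2 difference was 1.78 for Dcn (SE 0.70, limma adjusted p = 0.358), 1.14 for Lum (SE 0.50, adjusted p = 0.387) and 1.91 for Colec12 (SE 0.84, adjusted p = 0.387). No member had KO and control values free of overlap, against 4.4% of all genes. In bulk libraries, more cells of a type and more RNA per cell cannot be told apart.

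The size of the difference depended on which animals were compared. Against control animals 1 and 2 alone, which share Xist RNA with the KO animals, the log2 difference was 4.38 for Rgs5, 3.51 for Vtn, 3.44 for Colec12, 3.10 for Dcn, 2.47 for Myl9, 1.72 for Tagln, 1.61 for Lum, 0.76 for Pdgfrb and 0.22 for Acta2. Against control animals 3, 4 and 5 alone it lay between 0.51 (Pdgfrb) and 0.92 (Rgs5) for all 10. Without KO animals 1 and 3 it was 1.24 for Rgs5, 0.98 for Colec12, 0.78 for Dcn, 0.62 for Tagln and 0.55 for Vtn. The other members were then at 0.32 (Abcc9), 0.20 (Myl9), 0.15 (Lum), 0.06 (Pdgfrb) and −0.17 (Acta2). Abcc9 fell below the filter against control animals 1 and 2 and was not tested there. No tested member was called in any of these splits, and the part played by sex or by the 2 KO libraries was not tested.

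**Figure D4:**
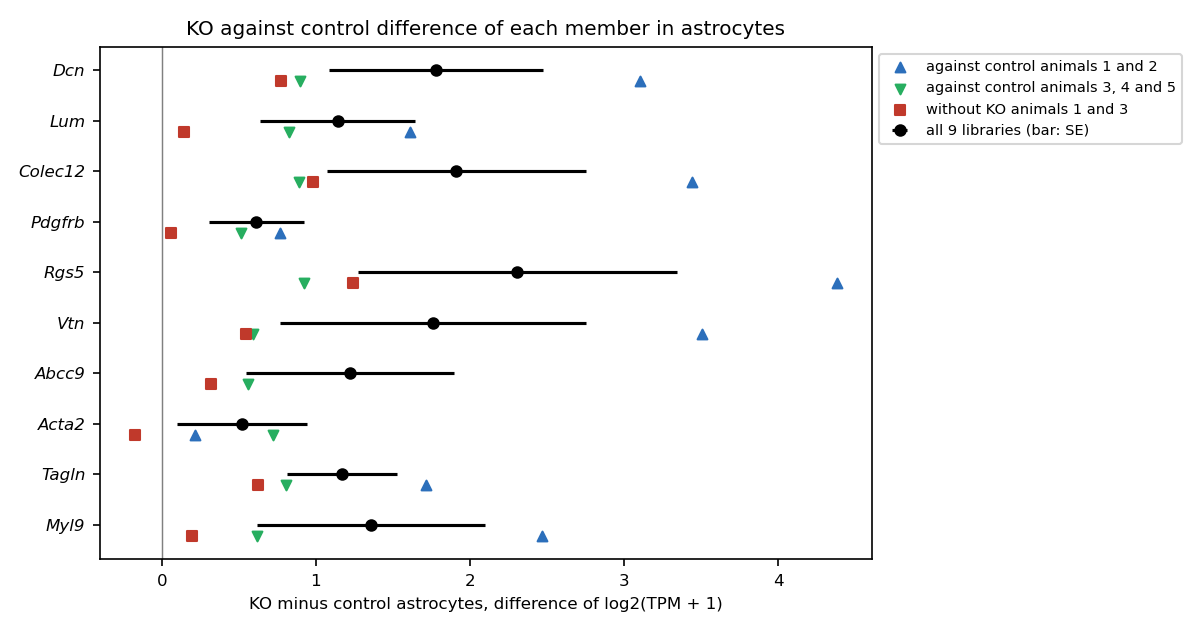
KO minus control astrocytes, difference of log2(TPM + 1), for each of the 10 genes: the circle and bar are the value and SE over all 9 libraries, triangles use control animals 1 and 2 or 3, 4 and 5 alone, and squares leave out KO animals 1 and 3. The Rgs5 value is 2.31 over all libraries and moves between 0.92 and 4.38. Abcc9 has no triangle for control animals 1 and 2, where it was not tested.

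Listed genes of the same cell types were looked at beside the 10. None was called by limma between KO and control astrocytes in any list. At an unadjusted p under 0.05 there were 2 of 12 pericyte, 1 of 9 smooth muscle, 2 of 13 fibroblast, 1 of 6 proteoglycan and 1 of 5 PDGF genes, against 12.7% of all genes. Among markers of other cell types there were 3 of 14 endothelial, 8 of 12 oligodendrocyte, 3 of 3 border macrophage, 4 of 12 astrocyte and 0 of 9 microglial genes. There were also 1 of 3 oligodendrocyte precursor, 1 of 4 neuronal, 0 of 7 ependymal and 1 of 4 choroid plexus genes. Only 3 of the 7 listed border macrophage genes were tested. Ms4a7 of that list and Kcne2 of the choroid plexus list were at most 0.3 and 0.6 TPM in control astrocytes. Both reached 1 TPM in KO astrocytes only, so the filter largely set the direction of their differences. Over all genes 60.1% of differences were positive, and genes of a list that move together are not separate observations. Of 12 further pericyte genes, all 12 had a positive difference with a median of 1.67. Notch3, a receptor needed by mural cells, had a log2 difference of 1.03 (limma adjusted p = 0.336) and Cspg4, which encodes NG2, one of 1.37 (adjusted p = 0.364). Of 9 smooth muscle genes tested all were positive with a median of 0.91, among them Tpm2 (1.15, adjusted p = 0.392) and the intermediate filament gene Des (1.53, adjusted p = 0.394). Of 13 fibroblast genes 12 were positive with a median of 0.76, among them the retinoic acid enzyme Aldh1a2 (1.73, limma adjusted p = 0.336) and the laminin gene Lamc3 (1.49, adjusted p = 0.367). Kcnj8 had a log2 difference of 1.87 (adjusted p = 0.467).

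Relatives of Dcn, Lum and Pdgfrb did not all point the same way. Of 6 tested genes of the leucine-rich proteoglycan family other than Dcn and Lum, 5 were positive, with Aspn (asporin) at 2.36 (limma adjusted p = 0.396). Prelp was the exception at −0.60 (adjusted p = 0.291), with 60.7 ± 17.3 TPM in KO astrocytes (SD, n = 4) and 90.7 ± 10 TPM in control astrocytes (SD, n = 5). Of 5 PDGF ligand and receptor genes 3 were positive. Pdgfrl, a PDGF receptor-like gene, had 43.8 ± 9.50 TPM in KO astrocytes and 70.5 ± 8.96 TPM in control astrocytes, values that did not overlap, with a log2 difference of −0.69 (limma adjusted p = 0.265). Pdgfra, which marks fibroblasts and oligodendrocyte precursors, stood at 0.53 (adjusted p = 0.525).

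Markers of other cell types moved across the same libraries. Endothelial markers summed to 1618, 182.8, 950.3 and 369.3 TPM in KO astrocytes 1 to 4, against 143.6, 69.6, 288.7, 504.8 and 294.7 TPM in control astrocytes 1 to 5. KO animals 1 and 3 were again highest and control animals 1 and 2 lowest, but KO animal 1 exceeded KO animal 3 and control animal 4 exceeded KO animal 4. All 14 tested had a positive difference with a median of 0.98, against 60.1% positive over all genes. Examples were Kdr at 0.86 (limma adjusted p = 0.362) and Cdh5 at 0.99 (adjusted p = 0.365). The 12 pericyte genes summed to 1163, 147.4, 1820 and 653.7 TPM in KO astrocytes 1 to 4, against 81.8, 39.2, 177.2, 603.3 and 544.1 TPM in control astrocytes 1 to 5. The sum of the listed fibroblast genes varied less, at 406.0–958.1 TPM in KO astrocytes and 323.5–566.4 TPM in control astrocytes, with KO animal 4 (923.8 TPM) between KO animals 1 and 3. Its largest part was Apod, which oligodendrocytes also express, at 419.1, 178.5, 367.3 and 625.4 TPM in KO astrocytes 1 to 4. Slc13a3 stayed at 94.8–142.0 TPM in all astrocyte libraries. By contrast, Mgp ranged over 13.7–189.1 TPM in KO and 0.2–59.3 TPM in control astrocytes, and Col1a1 over 16.3–24.3 and 10.8–35.3 TPM. Oligodendrocyte markers were positive in 12 of 12 genes with a median of 0.64, and astrocyte markers in 2 of 12 with a median of −0.29. Border macrophage markers summed to 95.4, 6.9, 28.7 and 16.7 TPM in KO astrocytes 1 to 4, against 3.7–13.6 TPM in control astrocytes. Here too KO animals 1 and 3 were highest. The part of these other cell types in the result was not tested.

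**Figure D5:**
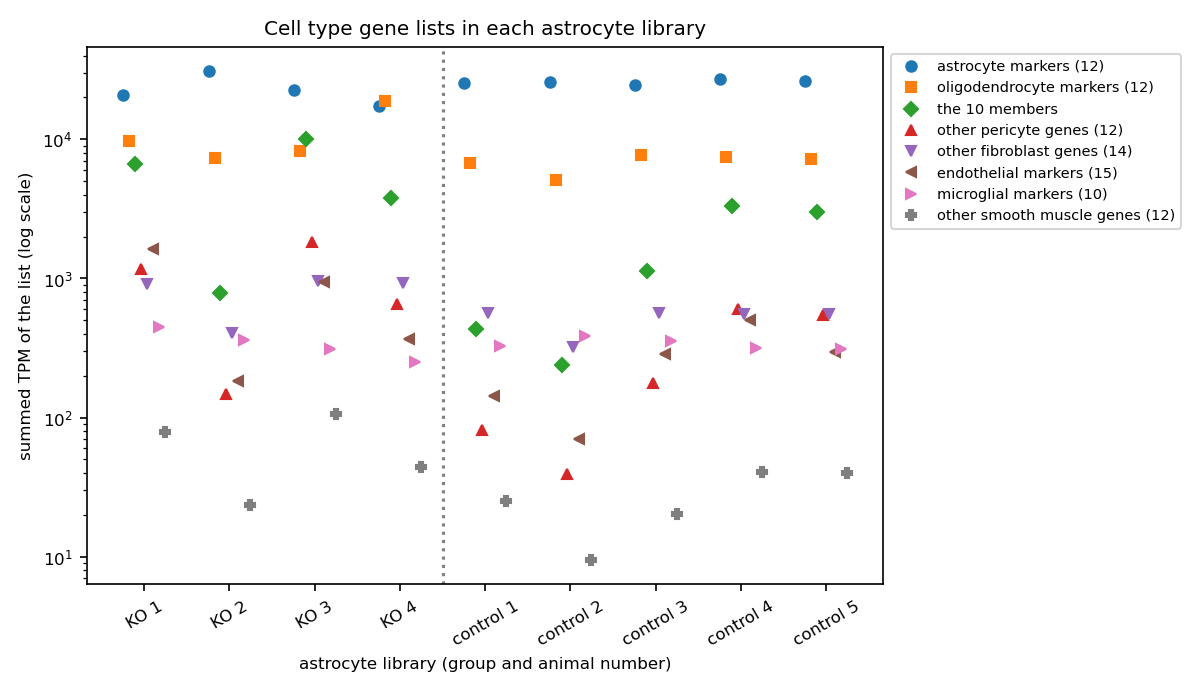
Summed TPM of marker lists (log axis) in each of the 9 astrocyte libraries, KO animals left of control animals. Pericyte, smooth muscle and endothelial sums are highest in KO animals 1 and 3 and lowest in control animal 2, while astrocyte marker sums stay at 17477–30795 TPM.

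Astrocyte libraries held far more of these genes than microglia libraries. In control mice 7 of 9 tested genes were called higher in astrocytes, where 39.5% of all 15332 genes tested were called higher. In KO mice 9 of 9 were called higher, where 42.9% of 15365 were. Abcc9 was not tested in either, since only 3 astrocyte libraries of each genotype reached 1 TPM; it was listed at 0 or 0.1 TPM in all microglia, and at 0.1 TPM in control astrocytes 2.

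Rgs5 had 53.3, 8.7, 15.9 and 9.2 TPM in microglia of KO animals 1 to 4, and 3.9, 0.4, 77.2 and 19.4 TPM in microglia of control animals 1, 2, 4 and 5. Set against astrocytes of the same animal, microglia had between 0.371% and 5.46% of the Rgs5 level, with a median of 1.74% over 8 animals. The log2 difference, astrocytes minus microglia, was 6.57 in KO mice (SE 0.78, limma adjusted p = 4.12e-05) and 5.03 in control mice (SE 1.28, adjusted p = 0.00548). Vtn had 14.5, 4.7, 3.5 and 5.8 TPM in microglia of KO animals 1 to 4, and 4.7, 0.4, 19.5 and 4.7 TPM in microglia of control animals 1, 2, 4 and 5, with a median of 0.454% of the astrocyte level. It had the largest log2 difference of the 10 genes in both genotypes, 7.87 in KO mice (SE 0.79) and 6.50 in control mice (SE 0.95, limma adjusted p = 0.000143). In microglia Rgs5 was above Vtn in 6 of 8 libraries and equal to it in 1, whereas in astrocytes Vtn was above Rgs5 in every library but that of KO animal 2.

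Among the other genes Myl9 differed by 5.98 in KO mice and 4.77 in control mice, Pdgfrb by 4.51 and 3.93, Dcn by 4.99 and 3.01, Lum by 4.15 and 3.23 and Acta2 by 2.11 and 1.52, all called. Pdgfrb was at most 0.2 TPM in every microglia library and at least 11.3 TPM in every astrocyte library. It therefore passed the filter through the astrocyte libraries alone, the group where it was high. Colec12 differed by 4.54 in KO mice (SE 0.58, limma adjusted p = 7.43e-05) but by 1.61 in control mice (SE 0.74, adjusted p = 0.0775). Control animal 1 had less Colec12 in astrocytes (1.9 TPM) than in microglia (2.8 TPM), and without that astrocyte library the difference was 2.22 (limma adjusted p = 0.00366). Tagln was the member nearest to equal: 1.17 in KO mice (SE 0.33, limma adjusted p = 0.00974) and 0.16 in control mice (SE 0.31, adjusted p = 0.663), with 2.9–5.2 TPM in KO microglia and 1.9–4.3 TPM in control microglia.

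The listed relatives showed the same cell type difference, with some exceptions. Of the 12 further pericyte genes, 11 were called higher in astrocytes of KO mice and 12 in astrocytes of control mice. Over all genes tested, 42.9% were called higher in astrocytes of KO mice and 39.5% in those of control mice. Slc6a20a, an amino acid transporter gene, had a log2 difference of 7.17 in KO mice (limma adjusted p = 8.28e-06), and Cox4i2 one of 4.01 in control mice (adjusted p = 8.18e-07). Of the smooth muscle genes tested, 7 of 8 were called higher in astrocytes of KO mice and 3 of 4 in those of control mice. Among them was Cald1 (caldesmon) at 3.65 and 2.36. Cald1 reached 1 TPM in astrocytes only, as did Cox4i2 in control mice. Such genes entered the test through the group where they were high, so the filter largely set the direction of their calls. Of the fibroblast genes 9 of 10 were called higher in KO mice and 8 of 11 in control mice, among them Apod (apolipoprotein D) at 7.24 and 5.92, a gene that oligodendrocytes also express. In the fibroblast list Serpinf1 was called lower in astrocytes of KO mice, and Serpinf1 and Col6a3 in those of control mice; they are named after their values were seen. Pdgfb, the ligand of Pdgfrb, also ran the other way: it was lower in astrocytes, at −2.61 in KO mice (limma adjusted p = 2.57e-06) and −3.23 in control mice (adjusted p = 7.16e-08).

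Between KO and control microglia, 7 of the 10 genes could be tested and none was called by limma, where the background was 28.4% of 13054 genes; 1 of the 7, Colec12, had an unadjusted p under 0.05, against 38.8% of all genes. Colec12 had 3.5, 1.3, 2.1 and 0.3 TPM in microglia of KO animals 1 to 4, and 2.8, 5.0, 3.9 and 5.3 TPM in microglia of control animals 1, 2, 4 and 5. KO animal 1 lay above control animal 1 and the other KO values below all controls, and the log2 difference was −1.02 (SE 0.36, limma adjusted p = 0.0627). It was called without KO microglia 1 (−1.29, adjusted p = 0.0235), without KO animals 1 and 3 (adjusted p = 0.0185) and with a pseudocount of 5 TPM (−0.46, adjusted p = 0.0468). For Rgs5 the log2 difference was 0.76 (SE 1.11, limma adjusted p = 0.670). Its sign depended on the controls: against control animals 1 and 2 it was 2.73 (limma adjusted p = 0.0384) and against control animals 4 and 5 −1.20. Dcn, Pdgfrb and Abcc9, at or under 3.3 TPM in all microglia, gave exact two-sided permutation p of 0.800, 1.00 and 0.429 (n = 4 each).

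Some related genes were called in microglia. Anpep, an aminopeptidase of pericytes also found on myeloid cells, had 8.33 ± 1.89 TPM in KO microglia and 1.15 ± 0.968 TPM in control microglia (SD, n = 4 each; log2 difference 2.23, limma adjusted p = 0.00121). Cox4i2, a cytochrome oxidase subunit, had 2.17 ± 0.67 TPM in KO microglia and 0.300 ± 0.294 TPM in control microglia (log2 difference 1.29, adjusted p = 0.00218). These 2 were the only listed pericyte genes abundant enough in microglia to test. Cox4i2 reached 1 TPM in KO microglia only, so it entered the test through the group where it was high. Tpm2 was the only listed smooth muscle gene called (log2 difference 0.80, limma adjusted p = 0.00678). It was not called with the replicate block (limma adjusted p = 0.0896) or in 1 fit over all groups (adjusted p = 0.223). In the other direction the proteoglycan gene Chad had 0.05 ± 0.0577 TPM in KO microglia and 9.90 ± 5.33 TPM in control microglia (log2 difference −3.23, limma adjusted p = 0.000104). The fibroblast-listed Serpinf1 and Col6a3 fell by 0.81 (adjusted p = 0.000986) and 1.56 (adjusted p = 0.00148). The endothelial-listed Pecam1 had a log2 difference of −2.27 (limma adjusted p = 2.61e-05). In 1 fit over all groups Serpinf1 had an adjusted p of 0.150. Chad, Col6a3 and Pecam1 reached 1 TPM in control microglia only. For these genes and for Cox4i2 the filter largely set the direction of the call.

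Whether the genotype difference itself was unlike in the 2 cell types was tested as an interaction over all 17 libraries. The main fit took the libraries as independent and so left out the pairing by animal. In that fit none of the 10 genes was called by limma, against 15.5% of 17087 genes, and 2 had an unadjusted p under 0.05, against 27.9%. The difference in astrocytes minus that in microglia was 2.93 for Colec12 (SE 1.03, limma adjusted p = 0.0656), 1.99 for Dcn (SE 0.95, adjusted p = 0.186) and 1.01 for Tagln (SE 0.47, adjusted p = 0.172). With the animal as a replicate block, since both cell types came from the same mice, 2 were called: Colec12 at 2.90 (limma adjusted p = 0.0481) and Tagln at 1.16 (adjusted p = 0.0289). The share of all genes called in the blocked fit is not given here, so this count has no background beside it. Colec12 was also called in the fit without a block when KO astrocytes 2 were left out (3.45, limma adjusted p = 0.0279), or control astrocytes 4 (3.33, adjusted p = 0.0322) or 5 (3.32, adjusted p = 0.0341).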

How the data were processed

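Cells were sorted from dissociated mouse brain and sequenced as paired reads of 61 bases, aimed at 60 M reads a library, per the labels' protocols. The authors deposited TPM values with 1 decimal, per the file headers and values. The submitters' processing notes name the build mm10, featureCounts (1.6.2), STAR (2.6.1e), cutadapt (1.9.1) and Trim Galore (0.4.2), with no role stated; the annotation, strand setting and treatment of multi-mapping reads are not given in the sources used here. TPM keep no depth, so no counting interval was made.

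From TPM, log2(TPM + 1) was fitted with limma 3.58.1 (R 4.3.3; moderated with a trend on mean expression) over genes reaching 1 TPM in 4 or more of a comparison's libraries, with Benjamini-Hochberg adjustment over all genes tested and a threshold of 0.05. Each comparison used its own 2 groups; the interaction used all 4. The fits were tested on simulated data. Replicates are separate animals. KO and control numbers share only a number (correlation of deviations from −0.092 to 0.185 in astrocytes); astrocytes and microglia of 1 number come from 1 animal per the titles, and their deviations correlated at 0.018 to 0.219.

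The 10 members and all gene lists were chosen with earlier results of these data known. Further genes are named by rule: for each list and comparison, up to 3 called genes with the lowest p or, with none called, the 2 with the lowest p; the text gives them for the comparisons it describes. Positions come from GENCODE M21 and promoters from RefSeq GRCm38.p6. Alternatives changed the pseudocount, filter, normalization, block, samples and pooling of groups. The library with conflicting labels was left out.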

Additional observations from a re-analysis of the deposited data

Results flagged for a closer look

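In 1 of 40 gene-by-group sets of 4 or 5 libraries examined, a library stood apart from the others of its group by Dixon's criterion, which by chance picks out about 1 group in 20. Rgs5 was at 53.3 TPM in microglia of KO animal 1, against 8.7 to 15.9 TPM in the other 3 KO microglia libraries, a gap of 0.839 of the whole range. The astrocytes of the same animal held 2791 TPM of Rgs5, the second highest of the 9. No explanation was tested.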

How the results depend on the processing

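Counts of members called did not move between KO and control astrocytes, at 0 under every alternative run. The count of all genes called there, 1 with the settings of the report, was 3 with no filter, 88 in 1 fit over all groups, 0 against control animals 1 and 2, 3 against control animals 3, 4 and 5, 0 without KO animals 1 and 3, and 0 to 5 leaving out 1 library at a time (0 without control 1, KO 1 or KO 3, 2 without control 5, 5 without KO 2). With the replicate number as a block it was 0, and the KO and control samples share only that number. Without KO animals 1 and 3 the sign turned for Acta2 (−0.17) and Pdgfra (−0.15). Between KO and control microglia 3711 genes were called, 2079 with the replicate block, 1858 without KO animals 1 and 3, and 2735 to 3611 leaving out 1 library; members called were 1 with a pseudocount of 5 TPM, 1 against control animals 1 and 2, 1 without KO animals 1 and 3, and 0 to 1 leaving out 1 library. The sign of Rgs5 turned against control animals 4 and 5 (−1.20), without KO animals 1 and 3 (−0.0402) and, leaving out 1 library, within −0.19 to 1.74, the lowest without control microglia 2.

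Between control astrocytes and microglia 10078 genes were called, 3339 with control animals 1 and 2 (members 1 of 3 tested), 6063 with control animals 3, 4 and 5, and 8773 to 9693 leaving out 1 library (members 7 to 8); Tagln turned to −0.26 with quantile normalization, −0.13 with control animals 1 and 2, and leaving out 1 library lay within −0.0380 to 0.34, the lowest without control microglia 1. Between KO astrocytes and microglia 10657 genes were called, 4331 in the fit without KO animals 1 and 3, which tested 10534 genes (members 4 of 4 tested), and 8022 to 9600 leaving out 1 library (members 8 to 9); Tagln had an adjusted p of 0.0612 with quantile normalization. For the interaction, 2648 genes were called, 1254 without KO animals 1 and 3 and 2089 to 2729 leaving out 1 library. Members called in it were 2 with the animal block, 1 with control animals 1 and 2, and 0 to 2 leaving out 1 library. For the animal block the count of all genes called is not given here. The block changed no other call of a member. The cause of these shifts was not tested.

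The number of animals limits all genotype comparisons, and TPM without depth gives no counting error for genes near 0, such as Abcc9.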
